A study of Sus scrofa with 15 samples.

Results

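The genes described here encode subunits of the proteasome and enzymes that attach or remove ubiquitin. They were chosen by symbol: every gene whose symbol begins with PSMA, PSMB, PSMC, PSMD, PSME, UBE2, or USP followed by a digit, other than the immunoproteasome subunits PSMB8 and PSMB9. Of 3020 genes that a probe could be assigned to by RefSeq accession, 24 met this rule, and they were measured with 51 probes. The pig annotation used holds 124 genes that meet the rule, so 100 of them were not measured through a named probe. There were 3 measured genes of the PSMA class, 5 of PSMB, 2 of PSMC, 1 of PSMD, 3 of PSME, 7 of UBE2 and 3 of USP.

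The ubiquitin-proteasome system is the main route by which cells degrade short-lived and damaged proteins. An E1 enzyme activates ubiquitin, an E2 enzyme (the UBE2 family) carries it, and an E3 ligase directs it to a substrate, while deubiquitinating enzymes such as the USP family take it off again. The tagged protein is unfolded by the regulatory particle (PSMC ATPases and PSMD subunits) and cut inside a barrel of PSMA and PSMB rings, which PSME activators can also open. Interferon makes cells exchange catalytic PSMB subunits for immunoproteasome forms and raise the activator pair PSME1 and PSME2, which serves the production of peptides for antigen presentation.

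Kidney tissue came from 15 female Yorkshire pigs aged 20 weeks, 5 in each of 3 groups, with 1 array per pig. All pigs had the left kidney removed and, 1 week later, 90 min of warm ischemia of the right kidney by clamping its artery and vein, and tissue was taken after 72 h of reperfusion. Control pigs had no preconditioning, whereas rIPCe (early) pigs had 2 cycles of 10 min clamping of the right external iliac artery immediately before renal ischemia, and rIPCl (late) pigs had the same procedure 24 h before it. No group was spared ischemia, so every comparison is between injured kidneys of pigs that had lost the other one.

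All 24 genes were well above background on all 15 arrays, without a missing value or a saturated spot. The share of spots well above background was 62.2% to 69.5% on control arrays, 67.4% to 73.9% on rIPCe arrays and 71.8% to 74.2% on rIPCl arrays. Every rIPCl array thus exceeded every control array in this share. It was at most 70.6% on slides 1 and 2 and at least 71.8% on slides 3 and 4. Arrays of a group correlated at 0.9691 to 0.9922. All 10 measured proximal tubule markers, all 7 of the distal nephron and collecting duct, and all 3 of endothelium were well above background on every array. Slide and group largely coincided: slide 1 held control arrays 1 to 4, slide 2 control 5 with rIPCe 1 to 3, slide 3 rIPCe 4 and 5 with rIPCl 1, and slide 4 rIPCl 2 to 5. No slide held both control and rIPCl arrays, so for this comparison slide and group cannot be told apart except through control 5 and rIPCl 1. Values below are log2 signals after quantile normalization, listed in the order of arrays 1 to 5, and a difference is one between group means on that scale.

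**Figure D1:**
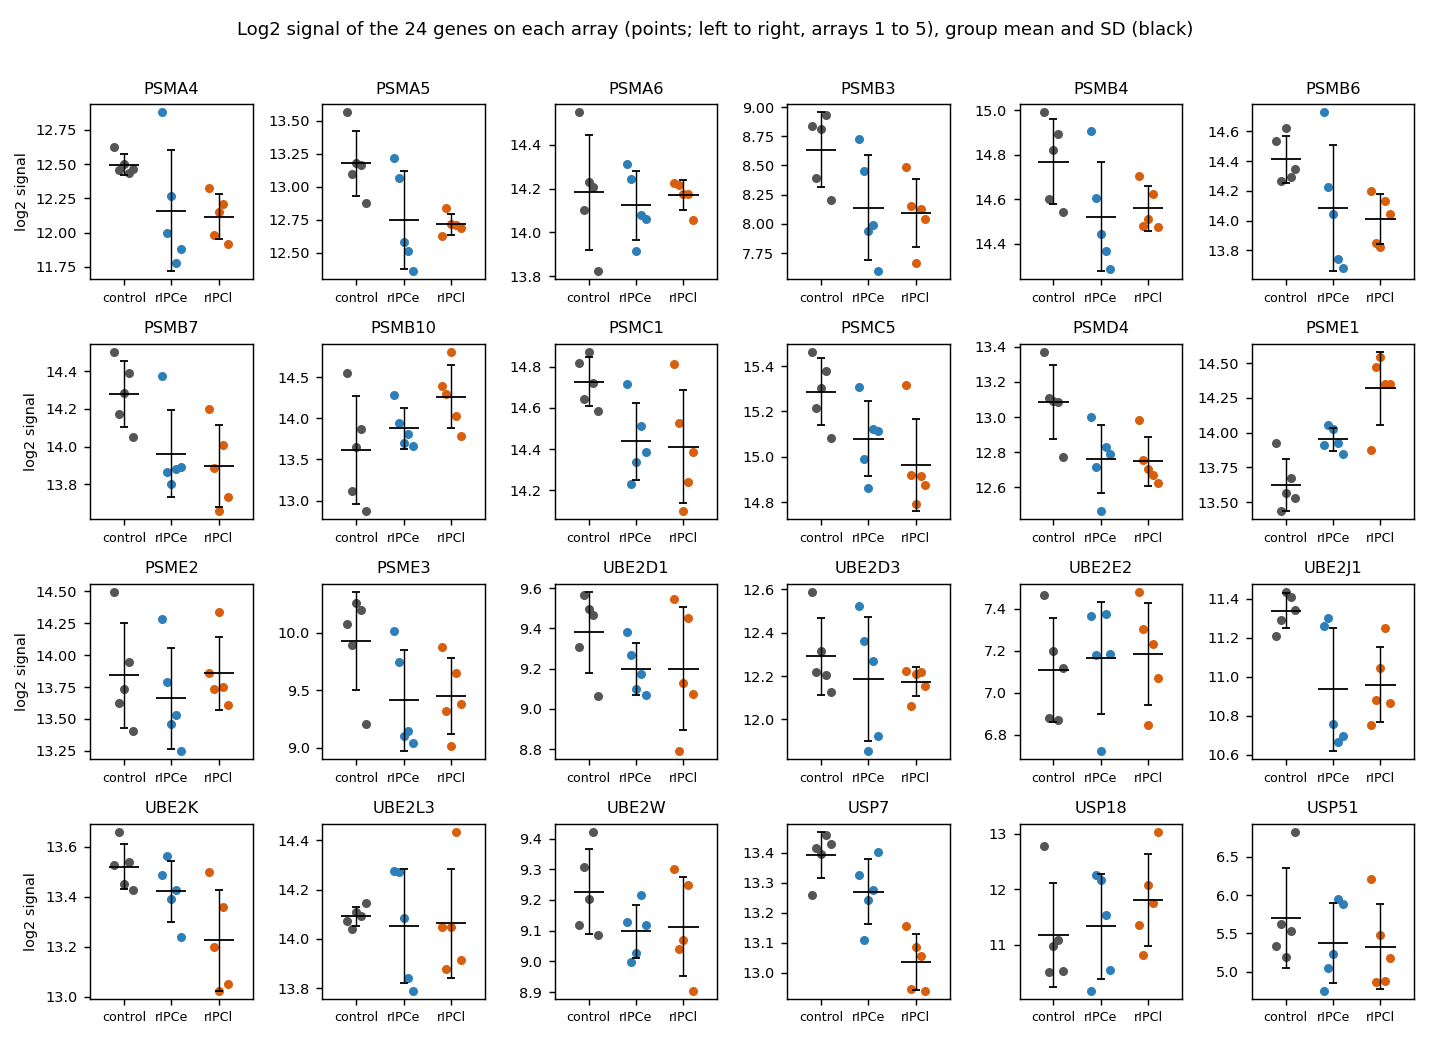
Log2 signal (vertical axis, a scale of its own for each gene) of the 24 genes on the 5 control, 5 rIPCe and 5 rIPCl arrays. Points are arrays 1 to 5 from left to right, and the black line and bar are the group mean and SD. PSME1 is the gene with the clearest step upwards (means 13.63, 13.95 and 14.32), and USP7 steps downwards (13.39, 13.27 and 13.04).

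The question of the comparison of rIPCl with control was whether late preconditioning altered kidney gene expression after ischemia. At an adjusted p under 0.05 (limma, Benjamini-Hochberg over all 43603 probes), 2 of the 24 genes differed: the activator subunit PSME1 rose and the deubiquitinase USP7 fell. The share, 8.33%, was close to the 9.5 percent of all 3020 genes called in this comparison, 4.47 percent of them higher and 5.03 percent lower. Neither change reached 2-fold, and 0 of 24 genes met the study's criteria of a 2-fold change with an unadjusted p under 0.05, against 9.7 percent of genes. The share of calls is thus that of genes in general and no result about these 24.

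The direction of the differences was less even. In rIPCl 19 of 24 genes (79.2%) lay below the control mean, against 51.5 percent of all genes, and the median difference was -0.30 against -0.02 over all genes. At an unadjusted p under 0.05, 11 of 24 (45.8%) were lower, against 17.3 percent of genes, and 2 were higher (8.33%), against 17.8 percent. In 4 genes (PSMA4, PSMA5, PSMB6 and USP7, 16.7%) every rIPCl array lay below every control array, against 7 percent of genes. The differences were small, and their direction depended on how the slides were treated: with slide as a fixed block 3 of the 24 genes lay below control in rIPCl (USP7, USP51 and UBE2J1), while the median over all genes moved from -0.02 to 0.17.

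**Figure D2:**
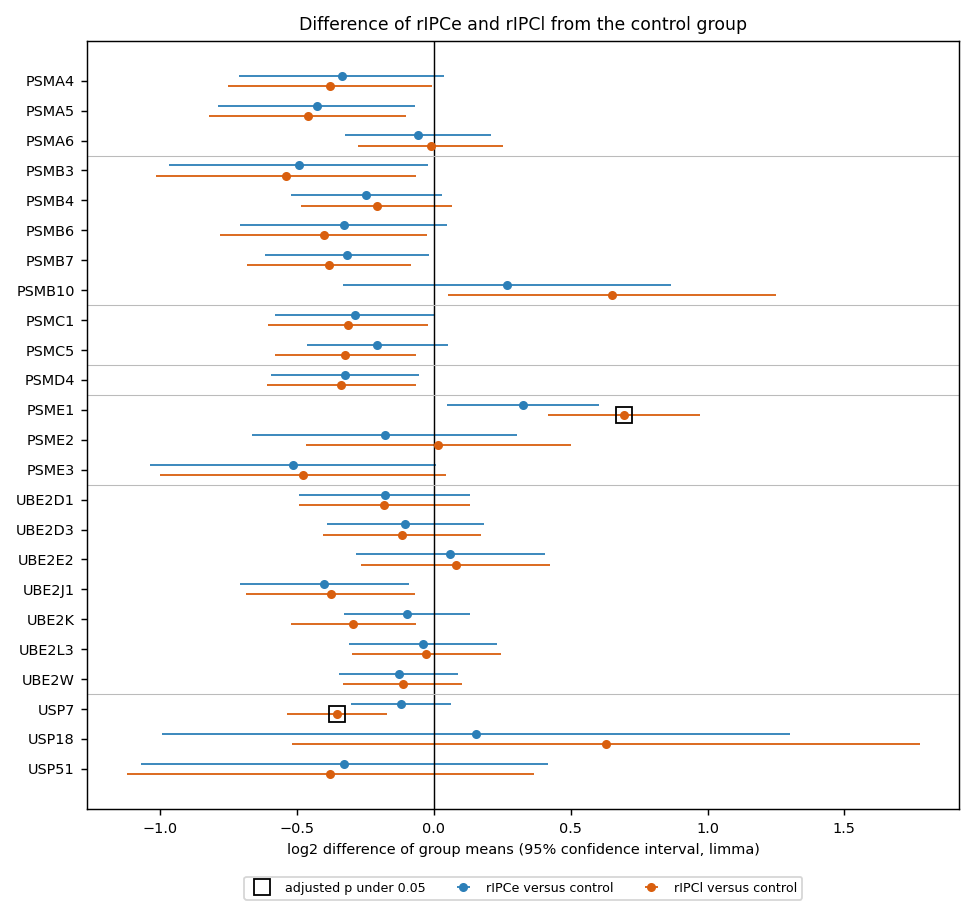
Difference of group means (horizontal axis, log2 units) of rIPCe (blue) and rIPCl (orange) from control for each gene, with the 95% confidence interval of the limma fit; grey lines part the 7 classes, and black squares mark an adjusted p under 0.05. Only PSME1 (0.69) and USP7 (-0.35), both in rIPCl, are marked, and most of the other points lie left of 0.

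PSME1 encodes one of the paired subunits of the interferon-inducible cap that opens the proteasome barrel. Its log2 signal was 13.92, 13.44, 13.57, 13.67 and 13.53 on the control arrays, 13.91, 14.05, 14.02, 13.92 and 13.85 on the rIPCe arrays and 13.88, 14.47, 14.55, 14.35 and 14.35 on the rIPCl arrays. All rIPCl arrays but array 1 were higher than every array of the other groups, and rIPCl 1 lay below the highest control array. PSME1 rose by 0.69 in rIPCl (SE 0.13, 95% confidence interval 0.42 to 0.97, n = 5 per group), a fold change of 1.62, with an adjusted p of 0.021 by limma and an exact two-sided permutation p of 0.0159. In rIPCe the difference was 0.33 (95% confidence interval 0.05 to 0.60, adjusted p = 0.287), with 3 of 5 arrays above all control arrays. The preconditioned groups differed from each other by 0.37 with an adjusted p of 0.979 (unadjusted 0.0134), so a difference between them was not established. A second, dimmer PSME1 probe read 0.43 higher in rIPCl and did not pass the threshold (adjusted p = 0.0505 by limma).

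With slide as a fixed block the PSME1 difference in rIPCl was 0.46 (adjusted p = 0.496), and with slide as a random block 0.66 (adjusted p = 0.222). Within slide 2, the 3 rIPCe arrays averaged 0.47 above the single control array. Within slide 3, rIPCl 1 differed from the mean of the 2 rIPCe arrays by -0.01. The direction of the increase over control was thus kept within the only slide that held control and preconditioned arrays, and the call was not. That direction rests on the single control array of the slide. The fixed-block value is the sum of the same within-slide differences, so it is not separate evidence for the direction.

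PSME2, the partner of PSME1 in the same cap, did not show this step in the fit without slides. Control arrays read 14.49, 13.62, 13.74, 13.94 and 13.41, rIPCe arrays 14.28, 13.79, 13.46, 13.53 and 13.25, and rIPCl arrays 13.86, 13.73, 14.34, 13.75 and 13.61. The 3 groups overlapped throughout, with control 1 the highest array. Its difference from control was 0.02 in rIPCl (95% confidence interval -0.47 to 0.50) and -0.18 in rIPCe. This contrast with PSME1 did not hold with slide as a block, where PSME2 was 0.91 above control in rIPCl (adjusted p = 0.547) and 0.43 in rIPCe (adjusted p = 0.792). Within slide 3, PSME2 was 0.47 higher on rIPCl 1 than on the rIPCe arrays. PSME3, which forms a separate, nuclear cap not induced by interferon, was 0.48 lower in rIPCl (adjusted p = 0.226) and 0.52 lower in rIPCe (adjusted p = 0.362), neither past the threshold. The direction of PSME3 turned with slide as a block, to 1.19 in rIPCl (adjusted p = 0.301) and 0.41 in rIPCe (adjusted p = 0.728). PSME3 ranged from 9.21 to 10.26 in control, from 9.05 to 10.02 in rIPCe and from 9.02 to 9.88 in rIPCl.

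PSMB10, the immunoproteasome subunit that takes the place of PSMB7, was the other gene of the interferon-inducible machinery measured. Its signal was 14.54, 13.12, 13.65, 13.86 and 12.87 in control, 14.28, 13.94, 13.70, 13.80 and 13.66 in rIPCe and 14.40, 14.29, 14.80, 14.03 and 13.79 in rIPCl. Control 1 lay within the range of the rIPCl arrays, and control 2, 3 and 5 were darker than all preconditioned arrays. For control 3 the margin was slight (13.652, against 13.658 on rIPCe 5). The difference was 0.65 in rIPCl (SE 0.28, adjusted p = 0.155) and 0.27 in rIPCe (adjusted p = 0.691). The 2 other PSMB10 probes read 0.89 and 1.02 higher in rIPCl, and the latter passed the threshold (adjusted p = 0.0476), so the call depended on which probe stood for the gene. It also depended on control 1: without that array the difference on the brightest probe was 0.88 (adjusted p = 0.0416). Its size depended on the slides: as a block they gave 1.77 in rIPCl (adjusted p = 0.313) and 1.103 in rIPCe (adjusted p = 0.395). PSMB7, which PSMB10 replaces, lay 0.38 below control in rIPCl (adjusted p = 0.102).

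Other genes of the interferon response and of antigen presentation lay above control as well. For scale, 48.5 percent of all genes lay above control in rIPCl and 4.47 percent were called higher. Of 18 measured, 18 had higher means in rIPCl and 2 rose past the threshold, CD74 (1.20, adjusted p = 0.0353), the invariant chain of class II molecules, and the chemokine CXCL11 (3.07, adjusted p = 0.0453). These became, with slide as a block, 0.10 (adjusted p = 0.988) and 0.37 (adjusted p = 0.985). The median of the 18 differences was 0.72 in rIPCl and 0.17 in rIPCe, against -0.02 and -0.03 over all genes. TAP1 and TAP2, the transporter that takes proteasome products into the endoplasmic reticulum, were 0.89 (adjusted p = 0.0914) and 0.98 (adjusted p = 0.075) higher in rIPCl. The mean log2 signal of the 18 genes ranged from 10.17 to 11.69 in control, with array 1 the highest, from 10.71 to 11.57 in rIPCe and from 10.75 to 12.69 in rIPCl. Control 1 thus stood above the other control arrays in this list, in PSMB10 and in PSME2.

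Markers of some other cell types also lay away from control in rIPCl. Of all genes, 48.5 percent lay above control there and 4.47 percent were called higher. Endothelial markers had a median of -0.03 (1 of 3 above control), and distal nephron and collecting duct markers 0.18 (4 of 7 above), with 0 called. Values of single markers with slide as a block are not reported here. In rIPCl 7 of 8 macrophage markers were above control and 4 rose past the threshold (C1QA, C1QB, C1QC and MRC1), with a list mean of 10.23 to 11.52 in control and 10.92 to 12.14 in rIPCl. All 10 T and NK cell markers were above control, 0 past the threshold, with a list mean of 6.12 to 7.59 in control and 6.71 to 9.29 in rIPCl; CD4 was well above background on 1 of 5 control and all 5 rIPCl arrays. All 3 B cell markers were above control and CD79A rose. All 4 fibroblast markers were above control with a median of 0.93 and LUM rose (1.49, adjusted p = 0.045), with a list mean of 12.28 to 12.86 in control and 12.63 to 13.89 in rIPCl. Of 10 proximal tubule markers 8 were below control and 1 fell (FBP1), with a list mean of 12.53 to 13.65 in control and 12.05 to 13.45 in rIPCl. In whole kidney tissue, fewer cells of a type and less RNA per cell cannot be told apart. The part of cell composition in the PSME1 and PSMB10 values was not tested.

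**Figure D3:**
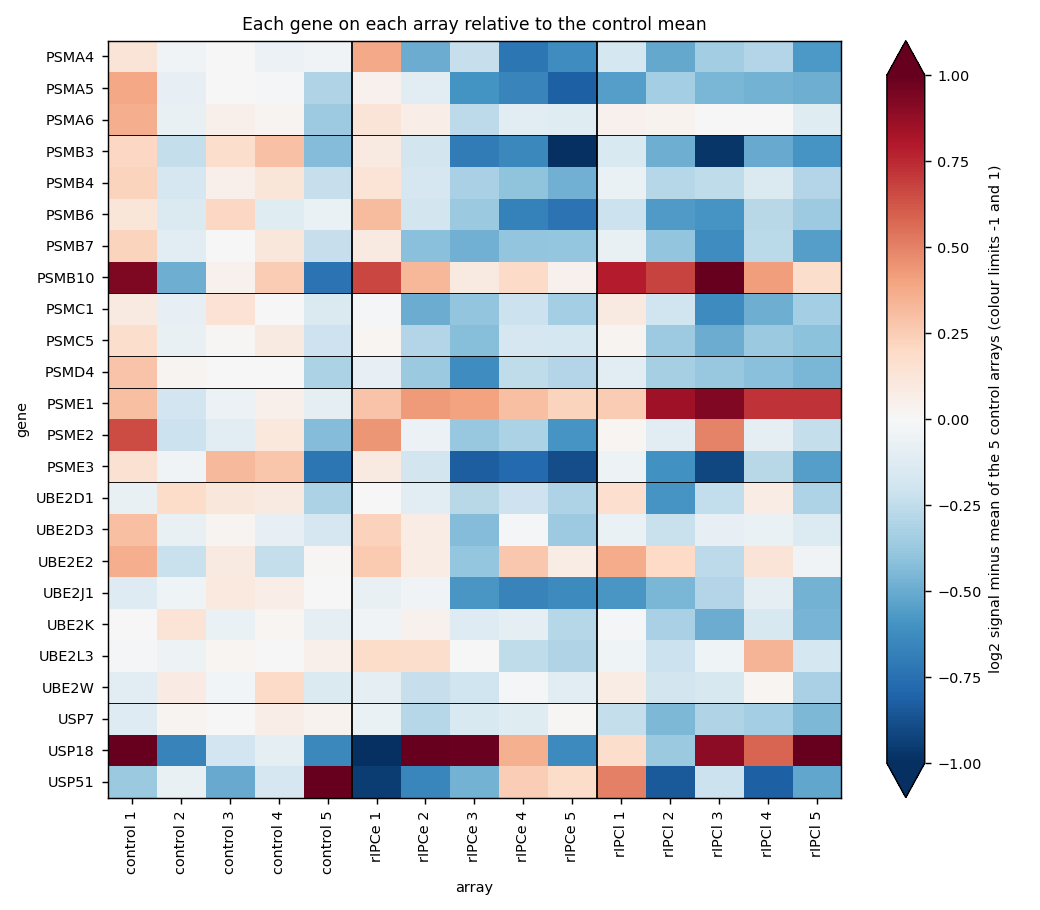
Log2 signal of each gene (rows, by class) on each array (columns) minus the mean of the 5 control arrays, red above and blue below, with colours cut at -1 and 1. PSME1 and PSMB10 are red on all rIPCl arrays, and the core subunits are mostly blue on rIPCe 3 to 5 and rIPCl 2 to 5 but mostly paler or red on control 1, rIPCe 1 and rIPCl 1.

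The 10 standard subunits of the barrel and of the regulatory particle (the PSMA genes, the PSMB genes other than PSMB10, the PSMC genes and PSMD4) went the other way from PSME1. This grouping was made after the values had been seen. All 10 had lower means than control in rIPCl, by 0.01 to 0.54, and all 10 in rIPCe, by 0.06 to 0.49, with medians of -0.36 and -0.32. In neither comparison did any of the 10 pass the threshold on its brightest probe. Both comparisons used the same control arrays, so the second is not independent of the first.

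Array by array, the median deviation of the 10 genes from the control mean was 0.21, -0.08, 0.03, 0.01 and -0.23 in control, 0.09, -0.24, -0.41, -0.40 and -0.44 in rIPCe and -0.09, -0.35, -0.48, -0.33 and -0.44 in rIPCl. Control 5, the control array that did not share a slide with the other 4, was the lowest control array. The arrays rIPCe 1 and rIPCl 1 were the highest of their groups and lay within the control range.

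Among the PSMA genes, which form the outer rings and the gate of the barrel, PSMA4 and PSMA5 were lower on all 5 rIPCl arrays than on any control array. PSMA4 read 12.63, 12.46, 12.50, 12.44 and 12.46 in control, 12.88, 12.00, 12.26, 11.78 and 11.88 in rIPCe and 12.32, 11.98, 12.15, 12.21 and 11.92 in rIPCl. The control arrays were tightly grouped, and rIPCe 1 lay above them while the other 4 rIPCe arrays lay below. PSMA4 differed from control by -0.38 in rIPCl (SE 0.17, adjusted p = 0.178; exact permutation p = 0.00794, the smallest that 5 against 5 arrays allow). Its 2 other probes disagreed, one at -0.55 and one at 0.16. PSMA5 read 13.56, 13.10, 13.18, 13.17 and 12.88 in control, 13.22, 13.07, 12.58, 12.52 and 12.36 in rIPCe and 12.63, 12.84, 12.72, 12.71 and 12.69 in rIPCl. Its rIPCl arrays were close together just below the lowest control array, at a difference of -0.46 (SE 0.17, adjusted p = 0.101; exact permutation p = 0.00794). PSMA6 was level, with differences of -0.01 in rIPCl (95% confidence interval -0.28 to 0.25) and -0.06 in rIPCe, and its 3 probes lay within 0.08 of 0 in rIPCl.

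The PSMB genes make up the inner rings that hold the cutting sites. PSMB6, which carries the caspase-like activity of the standard proteasome, read 14.54, 14.27, 14.62, 14.29 and 14.34 in control, 14.73, 14.23, 14.05, 13.74 and 13.68 in rIPCe and 14.20, 13.85, 13.82, 14.13 and 14.05 in rIPCl. Again all rIPCl arrays lay below all control arrays, and rIPCe 1 lay above them. The difference in rIPCl was -0.40 (SE 0.18, adjusted p = 0.16; exact permutation p = 0.00794), and its 2 other probes read -0.55 and -0.57. PSMB7, which carries the trypsin-like activity, read 14.50, 14.17, 14.28, 14.39 and 14.05 in control, 14.37, 13.86, 13.80, 13.88 and 13.89 in rIPCe and 14.20, 13.89, 13.66, 14.01 and 13.73 in rIPCl. In each preconditioned group 4 of 5 arrays were lower than every control array, and the exceptions were rIPCe 1 and rIPCl 1. PSMB3 and PSMB4, structural subunits without a cutting site, differed by -0.54 (adjusted p = 0.138) and -0.21 (adjusted p = 0.311) in rIPCl. All 5 probes of PSMB4 were below control, from -0.36 to -0.21.

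In the regulatory particle, the ATPases PSMC1 and PSMC5 unfold substrates and PSMD4 is a receptor for ubiquitin chains. PSMC1 ranged from 14.58 to 14.87 in control and from 14.10 to 14.81 in rIPCl, a difference of -0.31 (SE 0.14, adjusted p = 0.157). Its second, dimmer probe read -0.67 and passed the threshold (adjusted p = 0.0381). PSMC5 ranged from 15.08 to 15.46 in control; in rIPCl array 1 read 15.31 and the other 4 lay between 14.79 and 14.92, below every control array, for a difference of -0.32 (adjusted p = 0.108). PSMD4 read 13.37, 13.11, 13.09, 13.08 and 12.77 in control and 12.98, 12.75, 12.70, 12.67 and 12.63 in rIPCl, with rIPCl 1 the only one of its group above the lowest control array, for a difference of -0.34 (adjusted p = 0.109). Without rIPCl 1, PSMC1 and PSMC5 passed the threshold, as did the E2 enzyme UBE2K. Calls over all probes then rose as well, from 2736 to 4913, and the rIPCl arrays left were all on slide 4.

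**Figure D4:**
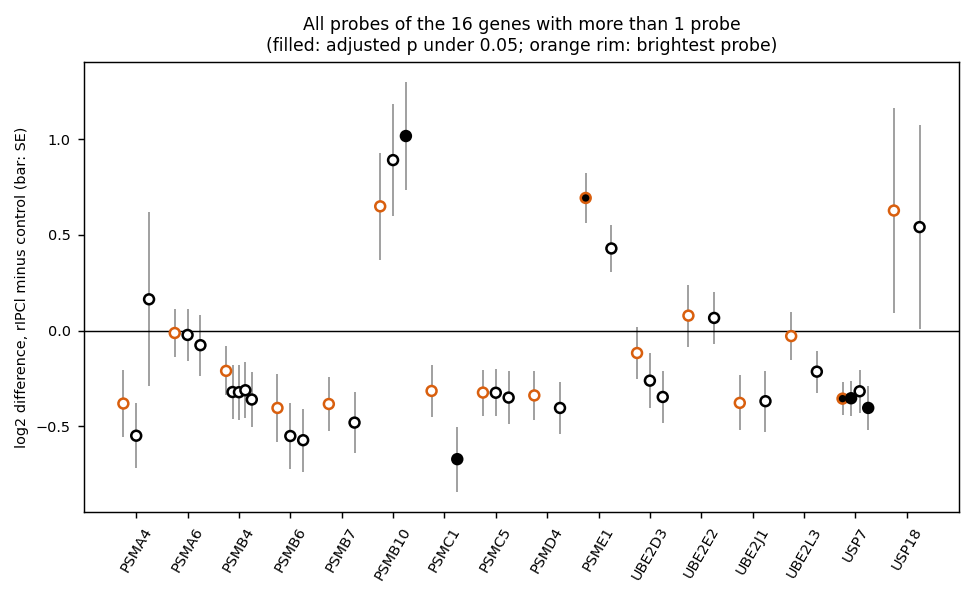
Difference of rIPCl from control (vertical axis, log2 units, bars give the SE) for each probe of the 16 genes with more than 1 probe, brightest first with an orange rim; filled points have an adjusted p under 0.05. In 15 of the 16 genes all probes lie on one side of 0, and PSMA4 is the exception.

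The values of the standard subunits depended on the treatment of the slides. With slide as a fixed block their median difference in rIPCl became 0.35, above 0 in all 10 genes. In rIPCe it became -0.02, with 6 of 10 genes below 0. Within slide 2 the 3 rIPCe arrays differed from the control array by a median of -0.02 over the 10 genes, with 4 of them above 0, and within slide 3 rIPCl 1 lay above the 2 rIPCe arrays in all 10, by a median of 0.34. These within-slide values rest on 1 array on one side. With slide as a random block the median stayed negative and 9 of 10 genes lay below 0 in rIPCl, with no call among the 24 genes and 0 over all probes, which covers every call in rIPCl named here. Slide and preconditioning cannot be told apart for these genes.

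Other genes that build or serve the proteasome were few. For scale, 51.5 percent of all genes lay below control in rIPCl and 5.03 percent were called lower. Of 3 measured genes for assembly, shuttling and regulation, all were below control in both preconditioned groups and 1 fell in rIPCl: PSMG1, a chaperone that helps assemble the PSMA ring. PSMG1 read 13.02, 13.20, 13.17, 13.34 and 12.61 in control, 12.88, 12.38, 12.35, 12.32 and 12.49 in rIPCe and 12.68, 12.19, 12.17, 12.30 and 12.12 in rIPCl. Control 5 stood below the other control arrays, and rIPCl 1 above the rest of its group and above control 5. The fall was 0.78 (SE 0.16, adjusted p = 0.0244), and in rIPCe the difference was -0.59 (adjusted p = 0.19). The PSMG1 difference in rIPCl was 0.20 with slide as a block (adjusted p = 0.855). VCP, which extracts ubiquitinated proteins from membranes and complexes, differed by -0.24 in rIPCl (adjusted p = 0.327), and BAG6 by -0.10 (adjusted p = 0.553).

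The 7 UBE2 genes, the E2 enzymes, showed small differences. Their median difference was -0.12 in rIPCl and -0.10 in rIPCe, 6 of 7 were below control in both, and 0 passed the threshold. Slide as a block turned the median to 0.22 in rIPCl and 0.0541 in rIPCe, and in rIPCl all of the 6 but UBE2J1 (-0.17) then lay above control. UBE2J1, which sits in the endoplasmic reticulum membrane and serves the disposal of misfolded proteins, was the lowest, with 11.21, 11.29, 11.43, 11.41 and 11.34 in control, 11.26, 11.30, 10.76, 10.67 and 10.70 in rIPCe and 10.75, 10.88, 11.05, 11.25 and 10.87 in rIPCl. Of the rIPCe arrays 3, and of the rIPCl arrays 4, lay below all control arrays, at differences of -0.40 (adjusted p = 0.25) and -0.38 (adjusted p = 0.116). UBE2K, an E2 that extends ubiquitin chains, read 13.53, 13.66, 13.45, 13.54 and 13.43 in control and 13.50, 13.20, 13.03, 13.36 and 13.05 in rIPCl, a difference of -0.29 (adjusted p = 0.102), and -0.10 in rIPCe. Again rIPCl 1 alone lay within the control range.

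The remaining E2 enzymes overlapped between groups. UBE2D1 and UBE2D3, which work with many E3 ligases, differed by -0.18 and -0.12 in rIPCl and by -0.18 and -0.10 in rIPCe. UBE2L3, which serves E3 ligases that take ubiquitin onto themselves first, differed by -0.03 in rIPCl (95% confidence interval -0.30 to 0.24) and -0.04 in rIPCe. Its control arrays lay between 14.04 and 14.14, whereas rIPCe spread from 13.79 to 14.27 and rIPCl from 13.88 to 14.43. UBE2W, which attaches ubiquitin to the amino terminus of proteins, differed by -0.11 and -0.13, and UBE2E2 by 0.08 and 0.06, in rIPCl and rIPCe.

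USP7, a deubiquitinase best known for stabilising the E3 ligase MDM2, was the gene of the set that fell. Its log2 signal was 13.26, 13.41, 13.39, 13.46 and 13.43 in control, 13.32, 13.11, 13.24, 13.27 and 13.40 in rIPCe and 13.16, 12.95, 13.09, 13.05 and 12.94 in rIPCl. All rIPCl arrays lay below all control arrays, and rIPCe arrays lay between and overlapped both. USP7 fell by 0.35 on the log2 scale in rIPCl (SE 0.08, 95% confidence interval -0.54 to -0.17), or 1.28-fold, with an adjusted p of 0.0333 by limma and an exact permutation p of 0.00794. The difference in rIPCe was -0.12 (adjusted p = 0.533), and between rIPCl and rIPCe it was -0.23 (adjusted p = 0.979, unadjusted 0.0155). All 4 USP7 probes were lower in rIPCl, from -0.40 to -0.32, and 3 passed the threshold.

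Unlike the standard subunits, USP7 kept its direction with slide as a block, at -0.39 (adjusted p = 0.461), and at -0.36 with slide as a random block (adjusted p = 0.232), though neither passed the threshold. Within slide 2 the rIPCe arrays averaged 0.20 less than the control array (difference -0.20), and within slide 3 rIPCl 1 differed from the rIPCe arrays by -0.18. USP7 was thus lower in the preconditioned group, or in the later one, on both slides that held 2 groups. Each of these within-slide differences rests on 1 array on one side, the control array of slide 2 and rIPCl 1. The fixed-block value is the sum of the same within-slide differences, so it is not separate evidence for the direction.

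**Figure D5:**
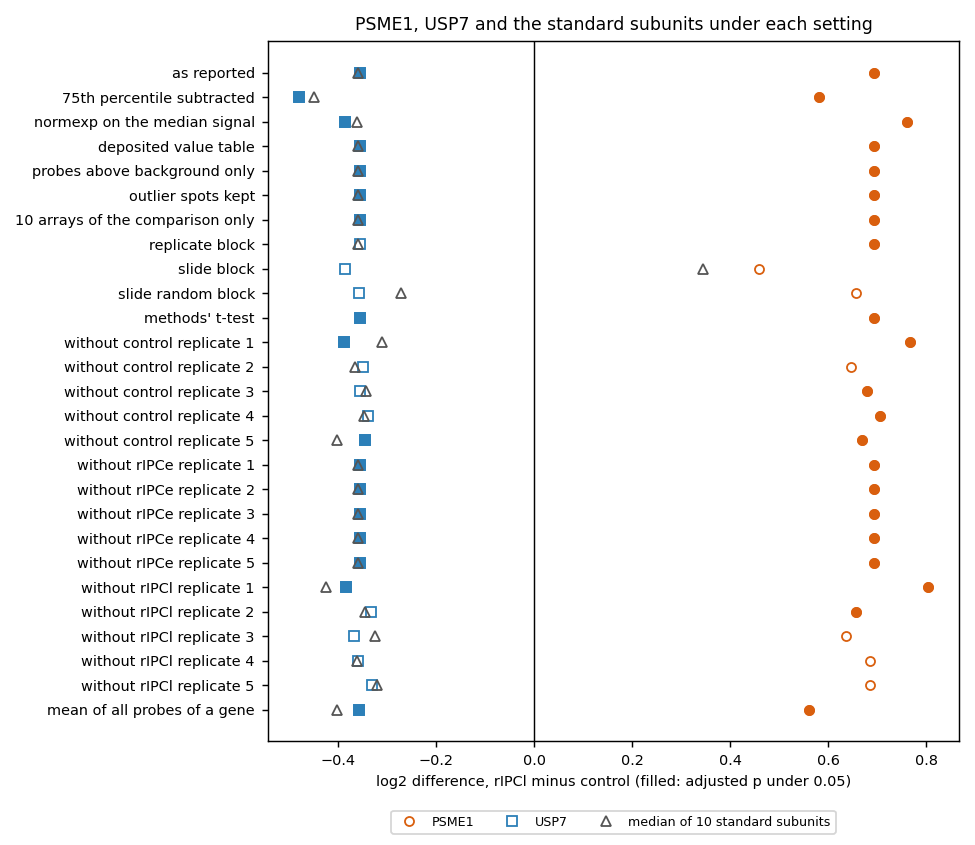
Difference of rIPCl from control (horizontal axis, log2 units) of PSME1 (orange circles), USP7 (blue squares) and the median of the 10 standard subunits (grey triangles) under each way of processing the data (vertical axis); filled circles and squares have an adjusted p under 0.05. PSME1 stays right and USP7 left of 0 throughout, and the standard subunits cross 0 with slide as a fixed block (0.35).

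The 2 other USP genes varied widely between pigs. USP18, which removes the interferon-induced modifier ISG15 and dampens interferon signalling, read 12.78, 10.51, 10.99, 11.08 and 10.53 in control, 10.17, 12.25, 12.17, 11.53 and 10.54 in rIPCe and 11.36, 10.81, 12.07, 11.76 and 13.03 in rIPCl. Control 1 stood far above the other control arrays, as it did in PSMB10, and the groups overlapped. The difference was 0.63 in rIPCl (95% confidence interval -0.52 to 1.78, adjusted p = 0.474) and 0.15 in rIPCe, so a change was not detectable with this spread; with slide as a block it was 1.32 in rIPCl (adjusted p = 0.786) and 1.00 in rIPCe (adjusted p = 0.832). ISG15 itself differed by -0.01 in rIPCl (adjusted p = 0.995). USP51, a histone deubiquitinase, was dim, with 5.33, 5.63, 5.19, 5.53 and 6.82 in control and 4.86 to 6.20 in rIPCl, for a difference of -0.38 (adjusted p = 0.51), or -1.53 with slide as a block (adjusted p = 0.109). Its brightest control array was control 5.

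Of 7 other deubiquitinating enzymes 6 were below control in rIPCl, against 51.5 percent of all genes. The 1 that fell, against 5.03 percent of genes called lower, was COPS5, the catalytic subunit of the COP9 signalosome, which strips NEDD8 from cullins. COPS5 has 6 probes, and only the values of its brightest are given here. COPS5 read 13.08, 13.06, 13.00, 13.10 and 12.59 in control, 12.70, 12.64, 12.30, 12.63 and 12.63 in rIPCe and 12.67, 12.32, 12.24, 12.46 and 12.56 in rIPCl. Control 5 and rIPCl 1 were again nearest to the other group. The fall was 0.52 (SE 0.13, adjusted p = 0.0348), the difference in rIPCe was -0.39 (adjusted p = 0.219), and with slide as a block the difference in rIPCl was -0.00342 (adjusted p = 1). UCHL1 had a large but uncalled difference of -1.82 (adjusted p = 0.0582), and TNFAIP3, a brake on inflammatory signalling, one of 1.09 (adjusted p = 0.123).

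The remaining lists of the pathway showed few calls. The ubiquitin gene UBB (-0.03, adjusted p = 0.916) did not pass the threshold in rIPCl, nor did any of 4 ubiquitin-like modifiers or of 10 E3 ligases and cullins, of which 5 were above and 5 below control. Among the E3 genes the largest difference was that of CDC20 (1.25, adjusted p = 0.111), which directs the mitotic E3 complex. Cell division genes, CDC20 among them, were above control in 8 of 8 with a median of 2.07, against 48.5 percent of all genes above control. They included 3 that rose, CCNB1, CCNB2 and BIRC5, against 4.47 percent of genes called higher. Their list mean was 7.33 to 9.66 in control, with array 1 the highest, and 9.59 to 10.72 in rIPCl, so the groups overlapped. Values of these 3 genes with slide as a block are not reported here. Of 14 chaperones, 7 were above and 7 below control. The mitochondrial chaperonin HSPD1 fell by 0.66 (adjusted p = 0.0249) and PDIA4, an endoplasmic reticulum protein disulfide isomerase, rose by 0.66 (adjusted p = 0.0471). In each, all 5 rIPCl arrays lay beyond all control arrays. This held for 7 percent of all genes below and 3.85 percent above control. HSPD1 has 12 probes, and only the values of its brightest are given here. Within slide 2 HSPD1 differed by -0.31 and PDIA4 by 0.91 between rIPCe and control, and within slide 3 by 0.23 and 0.32 between rIPCl and rIPCe. With slide as a block the differences in rIPCl were -0.0814 for HSPD1 (adjusted p = 0.972) and 1.23 for PDIA4 (adjusted p = 0.224).

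In rIPCe, which asked whether preconditioning just before ischemia altered expression, 0 of 24 genes passed an adjusted p under 0.05 by limma or by the methods' t-test, against 0 percent of the 3020 genes and 1 of 43603 probes (0.00229 percent) by limma. At an unadjusted p under 0.05, 5 genes were lower (PSMA5, PSMB3, PSMB7, PSMD4 and UBE2J1), 20.8% against 10.1 percent of genes, and PSME1 was higher, 4.17% against 5.99 percent. Of the 24, 20 lay below control, against 53.8 percent of genes, and in 0 of the 24 were the groups free of overlap, against 2.06 percent of genes below and 0.465 percent above control. The rIPCe arrays were uneven. In PSMA5 and PSMB6, for example, array 1 lay within or above the control range and arrays 4 and 5 were the lowest, whereas array 3 was the lowest in PSMB7, PSMC5 and PSMD4.

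Between rIPCl and rIPCe 0 of 24 genes passed by limma (smallest adjusted p 0.979) or by the methods' t-test, against 0 percent of genes, and 2 had an unadjusted p under 0.05, PSME1 and USP7 (8.33%, against 4.74 percent of genes). The median over the 10 standard subunits was -0.04, with single differences between -0.12 and 0.05. In this fit without slides the intervals of the 10 reached from -0.52 at the lowest to 0.43 at the highest, both in PSMB3. With slide as a fixed block the median was 0.34. Within slide 3 PSMB3 was 0.69 higher on rIPCl 1 than on the rIPCe arrays, which lies outside that span.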

How the data were processed

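Kidney RNA (200 ng) was hybridised to 1-colour Agilent porcine arrays, 1 per pig. The deposited values are linear intensities from Agilent Feature Extraction 11.0.1.1, background-corrected by the authors' scanner software and not normalized between arrays; the deposited value table holds the same intensities. A genome build is not given in the sources used here, and no coordinates are given. Here, spots other than control spots were taken to log2 and quantile normalized, as the methods name, after outlier spots (1 to 70 per array) were left out, and spots of a probe were averaged to 43603 probes. RefSeq accessions named 6686 probes of 3020 genes, and a gene is represented by its brightest probe. The symbols are those of the Sscrofa11.1 annotation, in which PSME1 and PSME2 are neighbours with 1 other gene between them. Levels of different probes were not compared.

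For each probe, limma 3.58.1 in R 4.3.3 fitted 1 mean per group over the 15 arrays, and its moderated tests were adjusted by Benjamini-Hochberg across all probes; intervals are 95%. Exact permutation tests were two-sided over 252 assignments (smallest p 0.00794). The members, the gene lists and the cell type markers were chosen with earlier results of these data known. Genes were named by a rule: called members, the 2 largest differences in each direction per class, and a written list, which together with the remaining members covered all 24; genes of the lists were named for their role or their call. The number of arrays limits the precision. The analysis was tested on simulated data, and 26 alternatives were tried. Promoter and protein sequences were not used here. Single values of some list genes are not reported here.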

Additional observations from a re-analysis of the deposited data

Results flagged for a closer look

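Of 72 groups of 5 arrays (24 genes in 3 groups), 4 had an array whose gap to its nearest neighbour exceeded 0.71 of the group's range, where chance flags about 1 group in 20. PSMB7 read 14.37 on rIPCe 1, with the nearest array at 13.89. PSMC5 read 15.31 on rIPCl 1, with the nearest at 14.92. USP18 read 12.78 on control 1, with the nearest at 11.08. USP51 read 6.82 on control 5, with the nearest at 5.63.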

How the results depend on the processing

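PSME1 stayed above and USP7 below control in rIPCl under all 26 alternatives, but their calls did not hold under all. A kept sign did not set these genes apart. Among genes not called as reported, PSMB10 (0.47 to 1.77), USP18 (0.32 to 1.32) and UBE2E2 (0.00494 to 0.18) also stayed above control. USP51 (-1.53 to -0.10) and UBE2J1 (-0.51 to -0.17) stayed below it. Leaving out single arrays, the number of genes called in rIPCl ranged from 0 to 5: 0 without control 2 or without rIPCl 3, 4 or 5, 1 without control 3, control 4 or rIPCl 2, 3 without control 1 (PSMB10 added) or control 5 (PSMD4 added), and 5 without rIPCl 1. Calls over all probes moved with these counts, from 2736 with all arrays. They were 184 without control 2, and 263, 74 and 49 without rIPCl 3, 4 and 5. Without control 1, control 5 and rIPCl 1 they were 3273, 4805 and 4913. PSME1 ranged from 0.64 to 0.80 (adjusted p 0.00988 to 0.0548) and lost its call without control 2 and without rIPCl 3, 4 or 5; USP7 ranged from -0.39 to -0.33 (adjusted p 0.0238 to 0.0768) and lost it without control 2, 3 or 4 and rIPCl 2, 3, 4 or 5. PSMG1 lost its call in 5 and COPS5 in 7 of these 15 alternatives. Of all 26 alternatives PSMG1 and HSPD1 were called in 19, COPS5 and CD74 in 14, CXCL11 in 9 and PDIA4 in 6. The median of the USP genes ranged from -0.39 to -0.10 over these alternatives, the last without control 5, and was -0.12 with normexp (offset 50) on the median signal. Genes near 0 changed sign when 1 array was left out: in rIPCl PSMA6 (-0.10 to 0.0795), PSME2 (-0.10 to 0.18) and UBE2L3 (-0.12 to 0.0186), and in rIPCe PSMA6 (-0.15 to 0.0324), USP18 (-0.0746 to 0.56) and UBE2L3 (-0.0954 to 0.0259). With the 75th percentile subtracted PSME2 was -0.0926 in rIPCl.

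With the replicate number as a block 1 gene was called in rIPCl, PSME1 (adjusted p = 0.0472), and USP7 was -0.35 (adjusted p = 0.0708). Over all probes this block called 987 in rIPCl. The numbers do not pair the pigs: deviations of same-numbered arrays correlated at -0.27 to 0.07, 0 of 15 pairs over 0.1, so they share only a number.

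Slide as a fixed block, which rests on control 5 and rIPCl 1 to link the slides, called 0 genes in rIPCl (PSME1 0.46, USP7 -0.39). In rIPCe it called 1, USP51 (-1.82, adjusted p = 0.00447), which was brightest on control 5, the control array of slide 2. That value is the difference of the rIPCe arrays of slide 2 from control 5 alone. Over all probes this block called 1189 in rIPCe, against 1 without it, and 479 in rIPCl, against 2736. With this block 3 genes in rIPCl and 2 in rIPCe met the unadjusted criteria with a 2-fold change. The share of all genes that met them is not given here. Class medians in rIPCl were then 0.41 for PSMA, 0.49 for PSMB, 0.19 for PSMC, 0.13 for PSMD, 0.91 for PSME, 0.22 for UBE2 and 0.35 for the standard subunits. In rIPCe they were 0.0796, 0.11, -0.0912, -0.0446, 0.43, 0.0541 and -0.0194. Between rIPCl and rIPCe they were 0.49 for PSMB, 0.28 for PSMC, 0.17 for PSMD, 0.17 for UBE2 and 0.34 for the standard subunits. Of 48 single differences from control 27 changed sign. In rIPCl these were PSMA4 0.41, PSMA5 0.27, PSMA6 0.49, PSMB3 0.87, PSMB4 0.49, PSMB6 0.48, PSMB7 0.28, PSMC1 0.21, PSMC5 0.17, PSMD4 0.13, PSME3 1.19, UBE2D1 0.61, UBE2D3 0.25, UBE2K 0.22, UBE2L3 0.30 and UBE2W 0.10, and outside the 24 genes PSMG1 0.20. In rIPCe they were PSMA5 0.0796, PSMA6 0.34, PSMB3 0.17, PSMB4 0.11, PSME2 0.43, PSME3 0.41, UBE2D1 0.19, UBE2D3 0.12, UBE2E2 -0.0258, UBE2K 0.0541 and UBE2L3 0.0653. With slide as a random block (correlation 0.228) 0 genes were called, PSME1 was 0.66 and USP7 -0.36, and UBE2L3 (0.0137 in rIPCl) and PSMA6 (0.0605 in rIPCl, 0.0281 in rIPCe) changed sign. The cause was not tested.

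The other alternatives called PSME1 and USP7 in rIPCl, with PSMC5 added by subtracting the 75th percentile, UBE2J1 by normexp and PSMA4 by the methods' t-test, and 0 genes in rIPCe. Over all probes, subtracting the 75th percentile called 7728 in rIPCl, normexp 3238 and the t-test 1548. Normexp on the median signal and the grouping of standard subunits were chosen after seeing the data; normexp on the mean signal was not run. All 24 genes were well above background, so the number of arrays limits the precision.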
